A study of Mus musculus with 9 samples.

Results

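The BAF complex (mammalian SWI/SNF) uses ATP to slide and evict nucleosomes, and so decides which enhancers and promoters of a cell are open. Neural progenitors build it with *Actl6a*, *Phf10*, *Dpf2* and *Ss18*, and when a progenitor leaves the cell cycle these are exchanged for the neuronal paralogues *Actl6b*, *Dpf1*, *Dpf3* and *Ss18l1*. Mutations of several subunits cause neurodevelopmental disorders, ARID1B and SMARCA4 among them. Described here are the transcripts of 10 subunits, chosen by name: the ATPases *Smarca2* and *Smarca4*, the core subunits *Smarcb1*, *Smarcc1*, *Smarcc2* and *Smarce1*, the DNA-binding subunits *Arid1a* and *Arid1b*, and the actin-related proteins *Actl6a* and *Actl6b*. All 10 were present in each of the 9 libraries, among 17487 genes in all.

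The data are single-cell transcriptomes of mouse neocortex at E18.5, with 1 library per embryo, 5 labelled wild type (WT) and 4 labelled *Tcf4* knockout (KO). Embryos were littermates from crosses of mice haploinsufficient for *Tcf4*, of the line Tcf4ex4WT/lacZ. The KO allele carries a lacZ and neomycin cassette ahead of exon 4, and a shorter TCF4 isoform is still made, so the KO libraries are not free of *Tcf4* transcripts. No Cre, drug or other agent was used. Following the study, WT replicates 2, 3 and 4 (WT2, WT3 and WT4) were compared with KO replicates 4 and 5 (KO4 and KO5). WT1, WT5, KO1 and KO2 are given as values only. The study left out libraries with few cells, and 1 WT animal whose *Tcf4* was lower than in the KO, without giving its number. WT5 kept 3630 cells here. The 5 compared libraries held between 1184 and 6173 cells after filtering. Depth was counted in unique molecular identifiers (UMIs, each a captured transcript). The median per cell was 2478.5, 3636 and 4359 UMIs in WT2, WT3 and WT4. It was lower in KO4 and KO5, at 2290 and 2217. Each cell's UMIs of a gene were scaled to 10000 UMIs in all, and a level is their average in a class. Since the chemistry reads the 3′ end, a UMI count does not grow with transcript length, but isoforms are not told apart.

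Cells were put into classes by fixed marker genes that hold no BAF subunit. Progenitors are cells gated as cycling progenitors, radial glia or astrocytes, or intermediate progenitors. Neurons are cells gated as newborn, upper layer, deep layer or GABAergic. With UMIs summed over the compared libraries, each gated class had at least 2 of its own markers among the 10 genes with the largest fold. No marker of another class stood there. Since cells were gated on these markers, this follows in part from the gating and does not test the labels. At 1800 UMIs per cell, microglia held a median of 8, 7 and 7 of their own markers in WT2, WT3 and WT4. In KO4 and KO5 the median was 3 and 2.

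Several libraries stood apart, and this touches every result below. The targeted gene *Tcf4* had 12.2, 12.6 and 12.2 UMIs per 10000 in the 3 compared WT libraries, against 9.29 for KO4 and 7.59 for KO5. It had 7.20 in WT5 and 4.65 in WT1, below their label, and 16.7 in KO1, above it, while KO2 had 9.12. Since the study excluded a WT animal for low *Tcf4*, the choice of libraries in part fixed this contrast between the compared groups. In WT5, KO4 and KO5, markers that played no part in gating differed less between classes than in WT2 to WT4. The summed level of 6 neuronal genes was 40.7, 28.2 and 37.7 in progenitors against 89.8, 72.9 and 76.7 in neurons of WT2, WT3 and WT4. It was 71.8 against 75.2 in WT5, 55.9 against 68.7 in KO4 and 62.5 against 70.7 in KO5. In KO1 and KO2 it was 33.6 against 71.5 and 27.4 against 64.6, near the values of WT2 to WT4. The same sum in endothelial cells was 8.43 to 20.8 in WT2 to WT4, and 62.3, 45.2 and 59.9 in WT5, KO4 and KO5. The sum of 6 progenitor genes fell from 24.4 to 33.4 in progenitors to 2.78 to 4.03 in neurons of WT2 to WT4, but was 6.44 against 4.71 in WT5, 11.0 against 5.004 in KO4 and 9.27 against 6.24 in KO5. The 7 haemoglobin genes summed to 5.40 to 8.51 in all cells of WT2 to WT4 and to 46.2, 31.99 and 71.9 in WT5, KO4 and KO5. None of these marker sums was at 0 in a class, and in WT5, KO4 and KO5 the classes resembled each other more than in WT2 to WT4. Between the 36 pairs of libraries at most 46 cell barcodes were shared, 326 over all pairs. Only KO4 and KO5 represent the KO in the comparison, so genotype and this property of the libraries cannot be told apart, and WT5 is therefore shown beside them.

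The pair *Actl6a* and *Actl6b* is shown with its promoters, because these paralogues, which take the same place in the complex, moved in opposite directions between classes. *Actl6a* (ENSMUSG00000027671) lies on chromosome 3 from 32706298 to 32726973 and *Actl6b* (ENSMUSG00000029712) on chromosome 5 from 137553517 to 137569582, both on the plus strand (GENCODE vM21, GRCm38). The windows are RefSeq's, from 250 bases before to 50 after a transcription start of each gene on GRCm38.p6, chr3:32708296-32708595 and chr5:137553296-137553595. The *Actl6a* window lies inside the GENCODE gene, downstream of its start at 32706298, whereas the *Actl6b* window spans the gene start at 137553517. Both are printed 5′ to 3′ on the plus strand, and capitals mark the E-box CANNTG, the motif that TCF4 and other basic helix-loop-helix proteins bind. The motif reads the same on both strands.
Actl6a promoter: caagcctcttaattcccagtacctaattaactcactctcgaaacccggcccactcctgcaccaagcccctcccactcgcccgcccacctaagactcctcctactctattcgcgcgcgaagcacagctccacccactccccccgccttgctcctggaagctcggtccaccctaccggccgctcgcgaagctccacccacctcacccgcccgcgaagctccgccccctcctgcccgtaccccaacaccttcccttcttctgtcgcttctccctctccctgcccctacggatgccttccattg
Actl6b promoter: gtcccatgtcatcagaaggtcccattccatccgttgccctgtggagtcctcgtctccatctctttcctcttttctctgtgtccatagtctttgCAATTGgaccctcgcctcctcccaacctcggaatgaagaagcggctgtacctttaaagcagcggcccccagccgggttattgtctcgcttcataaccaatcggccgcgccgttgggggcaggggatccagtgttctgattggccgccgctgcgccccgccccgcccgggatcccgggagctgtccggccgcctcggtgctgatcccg
The *Actl6a* window held no E-box and the *Actl6b* window 1, CAATTG. Of the 10 subunits, 9 had a window in the table (*Smarce1* had none), and 4 of these 9 held an E-box: *Actl6b*, *Smarca2*, *Smarca4* and *Smarcc1*. Of all 32851 windows of the same length, 72.3% held at least 1. GC content was 63.7% for *Actl6a* and 61.7% for *Actl6b*. A match describes the letters only.

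In WT2 to WT4 the exchange of *Actl6a* for *Actl6b* was the clearest class pattern of the 10 subunits. *Actl6a* had 1.09, 1.60 and 1.10 UMIs per 10000 in progenitors of WT2, WT3 and WT4 against 0.431, 0.769 and 0.635 in their neurons. Every WT library was thus higher in progenitors, by 2.12-fold ± 0.399 (SD, n = 3). *Actl6b* had 0.614, 0.531 and 0.704 in progenitors against 1.74, 1.53 and 1.46 in neurons, a ratio of 0.394 ± 0.0762. The groups of progenitor and neuron values did not overlap for either gene.

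By class, *Actl6a* was highest in cycling progenitors (1.56 ± 0.272, SD, n = 3), followed by intermediate progenitors (1.18 ± 0.273), radial glia or astrocytes (0.834 ± 0.324), GABAergic cells (0.718 ± 0.379), newborn neurons (0.644 ± 0.227), upper layer neurons (0.524 ± 0.0548) and deep layer neurons (0.421 ± 0.0967). Neighbours in this order overlapped between libraries, except the upper and deep layer neurons, whose ranges both ended at 0.483 without overlap. *Actl6b* ran the other way, from upper layer neurons (1.75 ± 0.229) over deep layer (1.52 ± 0.373), newborn (1.51 ± 0.105) and GABAergic cells (1.29 ± 0.198) to intermediate progenitors (0.818 ± 0.224), radial glia or astrocytes (0.708 ± 0.109) and cycling progenitors (0.492 ± 0.141). The only step without overlap lay between the 4 neuronal classes and the 3 progenitor classes. Across these 7 classes and 3 libraries (21 points), the genes whose log levels were most like those of *Actl6a*, among 3177 genes with a mean of at least 0.5, were H1f0 (Pearson r = 0.93), *Med21* (0.90), *Rrm1* (0.90), H2afv (0.89) and *Rnaseh2b* (0.89). *Rrm1* makes deoxynucleotides for DNA synthesis. Those most like *Actl6b* were *Nsg1* (0.93), *Stmn4* (0.92), *Mllt11* (0.92), *Hecw1* (0.91) and *Tubb3* (0.91), where *Tubb3* is the neuronal beta-tubulin. The r between *Actl6a* and *Actl6b* was -0.78. These are descriptions, since points of a library share its depth and the same classes were gated in each.

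**Figure D1:**
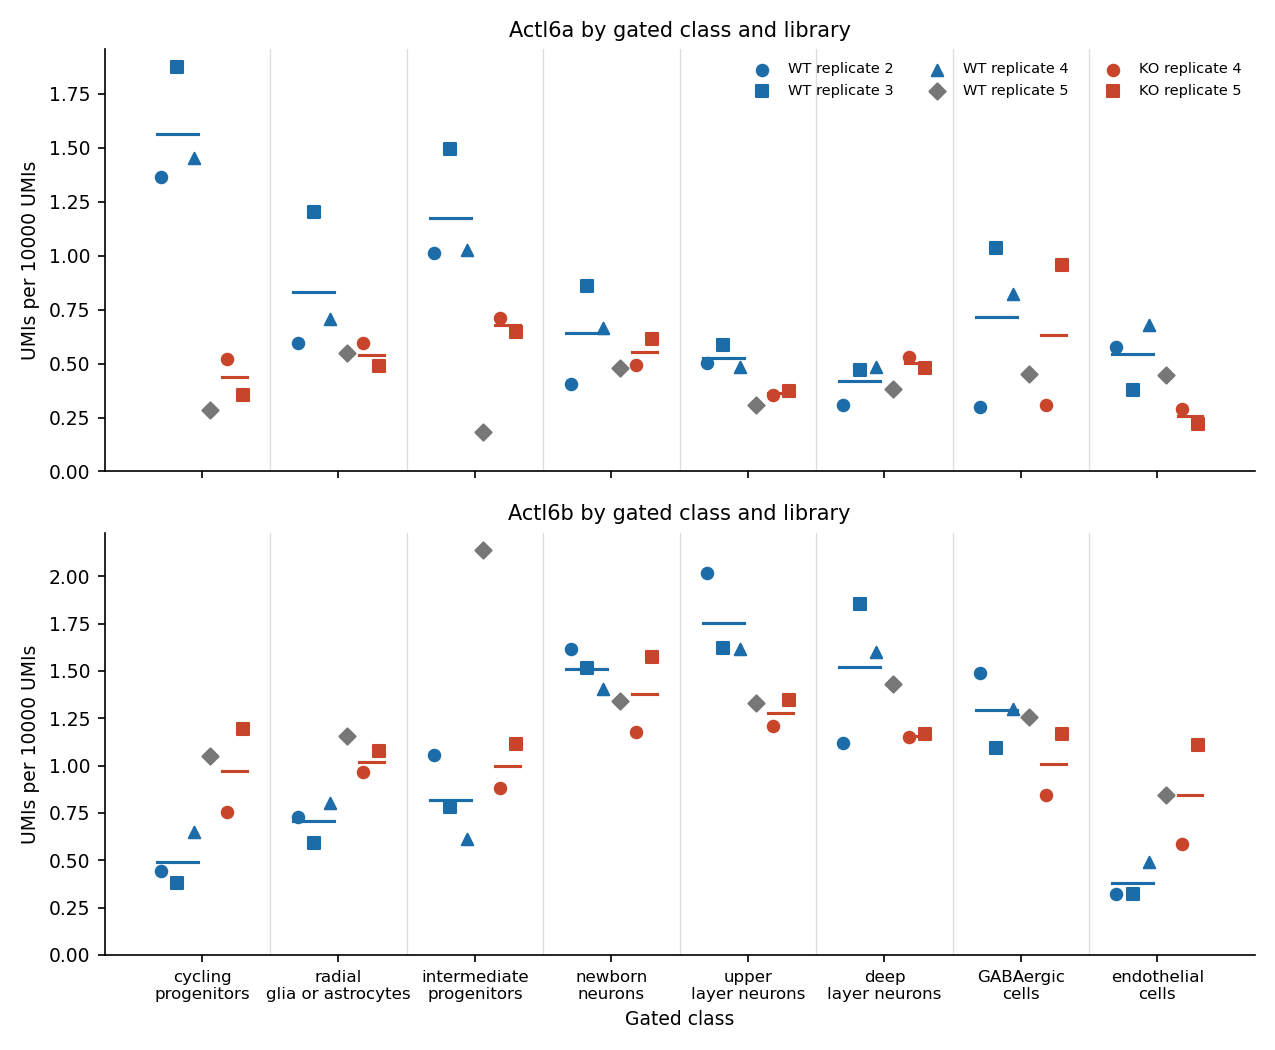
Level of Actl6a (top) and Actl6b (bottom) as mean UMIs per 10000 UMIs in 8 gated classes, with 1 point per library and lines for the means of WT2 to WT4 (blue) and of KO4 and KO5 (red). In blue, Actl6a falls from 1.56 in cycling progenitors to 0.421 in deep layer neurons and Actl6b rises from 0.492 to 1.75 in upper layer neurons, while the red points change less between classes and, like WT5 (grey), lie higher for Actl6b in endothelial cells. WT5 has its highest Actl6b value, 2.14, in intermediate progenitors.

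As a share of the UMIs of the pair, which does not depend on the total of a library, *Actl6b* made up 33.5% (exact 95% interval 26.5 to 41.1), 23.4% (19.1 to 28.2) and 37.0% (34.1 to 40.1) in progenitors of WT2, WT3 and WT4, and 79.3% (74.0 to 84.03), 67.4% (63.4 to 71.2) and 70.9% (69.2 to 72.6) in their neurons. The intervals cover counting error only. Progenitors of KO4 and KO5 had 58.4% (53.2 to 63.4) and 71.4% (64.8 to 77.4), and their neurons 73.0% (69.0 to 76.7) and 73.1% (67.7 to 78.1). The share was therefore alike in neurons of both genotypes and higher in KO progenitors than in any of the WT progenitors of the comparison. It was lower in progenitors in 5 of 5 libraries, with a mean difference of -27.99 percentage points ± 19.2 (SD) and p = 0.0625 in a 2-sided exact sign-flip test, the smallest p that 5 libraries allow. Over all 9 libraries it was lower in 8, with a mean difference of -21.1 points ± 21.1 (exact sign-flip test, p = 0.0273).

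Between genotypes, the share was 31.3% ± 7.05 in WT and 64.9% ± 9.21 in KO progenitors, a difference of 33.6 points, and 72.6% ± 6.12 against 73.0% ± 0.114 in neurons, a difference of 0.493 points. The 2-sided exact permutation p was 0.1 in progenitors, the smallest that 3 against 2 libraries allow, and 1 in neurons. Of the libraries outside the comparison, WT5 had 73.1% (66.3 to 79.2) in progenitors and 78.8% in neurons, close to KO5, whereas KO1 had 30.2% (18.3 to 44.3) and 62.9%, within the range of WT2 to WT4 in progenitors. Of the small libraries, KO2 had 54.1% and 82.8%, and WT1 had 10 of 10 UMIs and 83.3%.

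**Figure D2:**
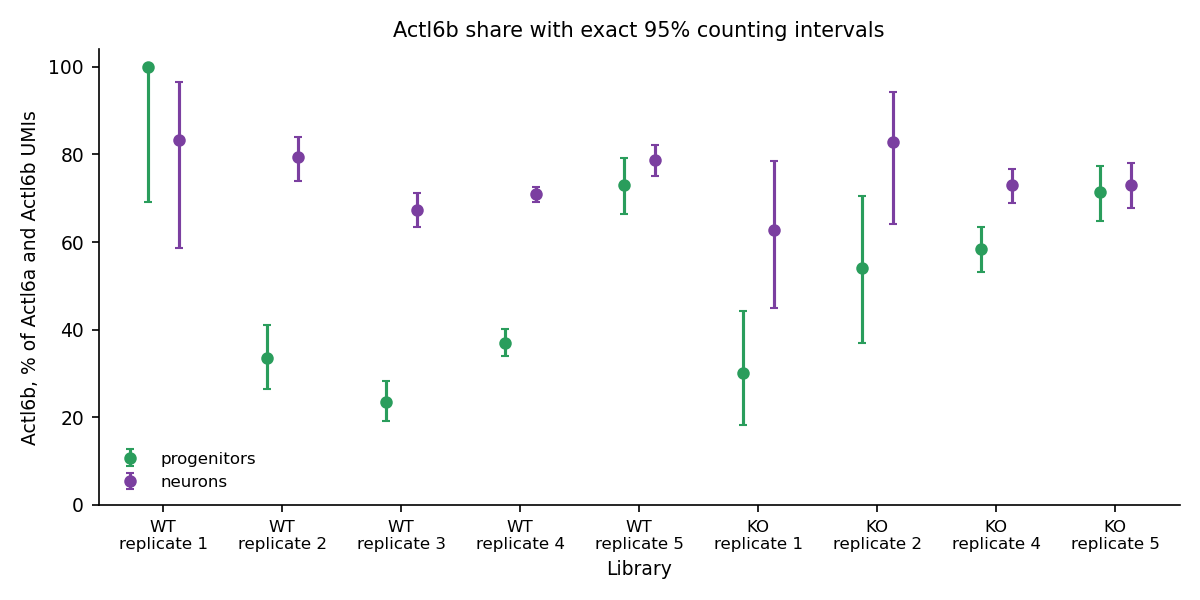
Actl6b as a percentage of all Actl6a and Actl6b UMIs in progenitors (green) and neurons (purple) of each of the 9 libraries, with exact 95% counting intervals. Progenitors lie well below neurons in WT2, WT3, WT4 and KO1, between 23.4 and 37.0%, and close to neurons in WT5 and KO5.

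The same exchange was seen in the share of cells with a UMI. After thinning each cell to 1800 UMIs, *Actl6b* was detected in 12, 7.12 and 11.5% of progenitors and in 27.6, 23.9 and 22.6% of neurons of WT2, WT3 and WT4 (15.1 to 25.6% and 35.6 to 47.2% before thinning). In endothelial cells, which are not expected to use this neuronal subunit, it was detected in 4 to 8.33% of cells in these libraries, with 12 to 41 cells each. In KO4 and KO5 it was detected in 13.3 and 18.7% of progenitors, 18.2 and 22.6% of neurons, and 9.89 and 15.8% of endothelial cells (13.2 and 23.7% before thinning). WT5 had 18.9, 22.1 and 14.7% in progenitors, neurons and endothelial cells. Within a library, progenitors of WT3 (7.12% against 8.33% of 12 endothelial cells) were at this background. In the other libraries the share was higher in progenitors, but in KO4, KO5 and WT5 the shares lay close together. The endothelial shares rested on 91, 38 and 68 cells there, and whether these progenitors exceeded the background was not tested. Median depth of the endothelial cells was 4060 to 5272 UMIs in WT2 to WT4 and 2250 to 2284 in KO4 and KO5. For *Actl6a* the thinned shares were 17.8 to 26.0% in WT and 7.65 to 9.20% in KO progenitors, and 7.36 to 12.8% against 7.48 to 8.52% in neurons.

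With limma across all 9301 genes tested, 1408 genes differed between progenitors and neurons over the 5 libraries at an adjusted p under 0.05 (called, 15.1% of genes). Higher in progenitors were 8.89% of genes and lower 6.25%. Among the 10 subunits 2 were called, both lower in progenitors. *Actl6b* differed by -0.47 ± 0.10 (SE, adjusted p = 0.041) and *Smarca2* by -0.36 ± 0.08 (adjusted p = 0.041), on the log2(value + 1) scale, which understates the change of low genes. *Actl6a* was 0.31 ± 0.10 higher without passing the threshold (adjusted p = 0.066), and was called by edgeR (0.75, adjusted p = 0.019) and DESeq2 (0.73, adjusted p = 0.0082) on the UMIs, which called 28.4% and 18.8% of genes. The median of the 10 was -0.10 and that of all genes 0.0014. These counts depended on single libraries. Without WT2, limma called 0 genes in all, with 2445 at an unadjusted p under 0.05, and without WT3 or WT4, 4 were called and no subunit.

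Within WT2 to WT4 alone, a fit chosen after the data had been seen, 3643 of 9048 genes were called (40.3%, with 22.1% higher and 18.1% lower in progenitors), and 6 of 10 subunits. Lower in progenitors were *Actl6b* (-0.67 ± 0.06, adjusted p = 2.6e-07), *Smarca2* (-0.53 ± 0.06, adjusted p = 4.47e-06), *Smarcc2* (-0.30 ± 0.05, adjusted p = 0.000268), *Smarcb1* (-0.17 ± 0.05, adjusted p = 0.021) and *Smarca4* (-0.14 ± 0.05, adjusted p = 0.036). *Actl6a* alone was higher (0.49 ± 0.05, adjusted p = 4.3e-06). Not called were *Smarcc1* (0.10), *Arid1a* (0.04), *Smarce1* (-0.10) and *Arid1b* (-0.10). Within KO4 and KO5 alone, 207 of 8229 genes (2.52%) and none of the 10 subunits were called by limma, with *Actl6b*, *Arid1a* and *Smarca2* at an unadjusted p under 0.05.

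Without regard to size, 7 of 10 subunits were lower in progenitors in each of WT2, WT3 and WT4 (31.4% of all genes) and 2, *Smarcc1* and *Actl6a*, were higher in each (33.5%). Over the 5 libraries 5 were lower in each (14.4%), *Smarca2*, *Smarca4*, *Smarce1*, *Arid1b* and *Actl6b*, and *Smarcc1* was higher in each (16.8%).

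The ATPases differed from each other. *Smarca2* (BRM) had 1.73, 1.44 and 1.46 UMIs per 10000 in progenitors and 2.65, 2.92 and 2.42 in neurons of WT2, WT3 and WT4, without overlap. It was highest in newborn neurons (2.88 ± 0.265) and lowest in cycling progenitors (1.40 ± 0.217). *Smarca4* (BRG1) had 1.53, 1.17 and 1.26 against 1.76, 1.52 and 1.40, lower in progenitors of each library but with overlap between libraries. *Smarca2* therefore made up 53.6, 54.9 and 52.5% of the UMIs of both ATPases in WT progenitors and 61.6, 65.7 and 62.2% in neurons. In KO4 and KO5 the shares were 63.1 and 59.8% in progenitors and 63.6 and 61.6% in neurons. The difference between classes was -6.15 points ± 4.72 over the 5 libraries and negative in 5 of 5 (exact sign-flip test, p = 0.0625), but -0.102 ± 10.9 points over all 9 (p = 0.98).

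The core subunits form the scaffold of the complex, in which *Smarcc1* (BAF155) and *Smarcc2* (BAF170) are alternative partners. *Smarcc2* had 0.875, 0.890 and 1.09 in progenitors and 1.37, 1.42 and 1.42 in neurons of WT2 to WT4, without overlap. *Smarcc1* had 1.96, 2.54 and 1.61 against 1.78, 2.11 and 1.57, higher in progenitors of each library by less than the spread between libraries. The share of *Smarcc2* in the pair rose from 32.1, 24.5 and 39.7% in WT progenitors to 44.4, 40.6 and 48.2% in neurons, and was 47.3 and 50.5% in progenitors and 52.5 and 45.8% in neurons of KO4 and KO5. It was lower in progenitors in 4 of 5 libraries, with a mean difference of -7.44 points ± 7.92 (exact sign-flip test, p = 0.125). *Smarce1* (BAF57) had 2.42, 2.75 and 2.29 in progenitors and 2.82, 2.90 and 2.46 in neurons, and *Smarcb1* (BAF47) had 2.09, 2.05 and 1.75 against 2.40, 2.68 and 1.93. *Arid1a*, which like *Arid1b* defines the canonical form of the complex, had 1.47, 0.876 and 1.57 against 1.25, 0.930 and 1.498, with no common direction. *Arid1b* had 0.313, 0.239 and 0.463 in progenitors and 0.345, 0.351 and 0.616 in neurons. In the order of the 7 classes, the WT libraries of all neighbours overlapped for *Smarca4*, *Smarcb1*, *Smarcc1*, *Smarce1*, *Arid1a* and *Arid1b*, and these 6 spanned from 1.32-fold (*Smarcb1*) to 2.27-fold (*Arid1b*) between the highest and the lowest class.

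**Figure D3:**
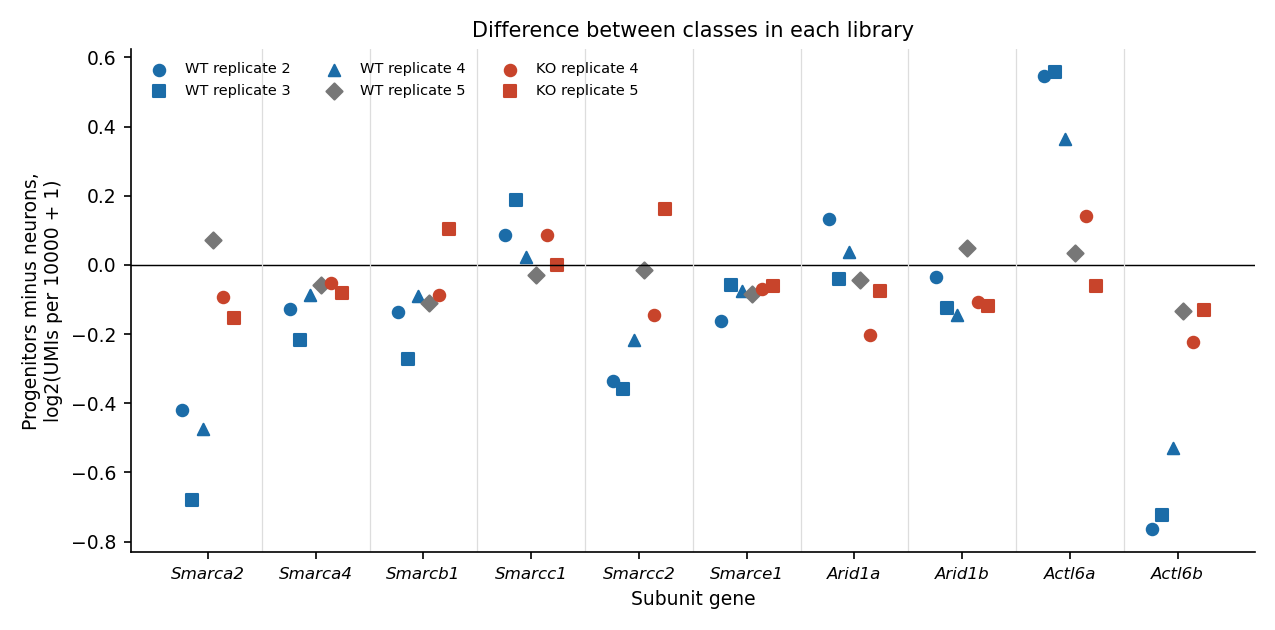
Difference between progenitors and neurons in log2(UMIs per 10000 + 1) for each of the 10 subunits, with 1 point per library. Points of WT2 to WT4 (blue) lie between 0.36 and 0.56 for Actl6a and between -0.76 and -0.53 for Actl6b, and those of KO4, KO5 (red) and WT5 (grey) lie nearer to 0 for Smarca2, Smarcc2, Actl6a and Actl6b.

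Of the other subunits that are exchanged, *Ss18* had 0.548, 0.623 and 0.370 in progenitors and 0.198, 0.262 and 0.194 in neurons of WT2 to WT4, without overlap. Its neuronal counterpart *Ss18l1* had 0.325, 0.161 and 0.242 against 0.512, 0.457 and 0.404. *Dpf1* had 0.706, 0.434 and 0.601 against 1.22, 1.16 and 1.13. Over the 5 libraries these 3 were called, *Ss18* higher in progenitors (0.21, adjusted p = 0.048) and *Ss18l1* (-0.17, adjusted p = 0.045) and *Dpf1* (-0.35, adjusted p = 0.038) lower. *Phf10* and *Dpf2* were not called, at 0.02 (adjusted p = 0.54) and 0.10 (adjusted p = 0.13). *Dpf3*, at 0.0852 ± 0.0517 in progenitors and 0.0311 ± 0.0196 in neurons, belongs to the neuronal form, and its difference of 0.05 did not pass the threshold (adjusted p = 0.13). Of 21 further BAF genes 19 were tested and 4 were called, these 3 and *Bcl11a* (-0.72, adjusted p = 0.041), a zinc finger subunit that also marks cortical projection neurons. Their median was -0.02.

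For comparison with other remodellers, 3 of 11 tested ISWI genes were called higher in progenitors (*Chrac1*, *Smarca5* and *Pole3*), 1 of 13 NuRD genes was higher (*Mbd3*) and 2 were lower (*Chd3* and *Chd5*), and 0 of 12 genes of INO80 and SRCAP were called, with 1 at an unadjusted p under 0.05. Their medians were 0.04, 0.04 and -0.0062. *Smarca5* is the ISWI ATPase, and *Chd3* and *Chd5* are ATPases of NuRD.

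The class pattern itself differed between genotypes. In the interaction of class and genotype 1474 of 9301 genes were called (15.8%, with 5.67% positive and 10.2% negative), and 4 of 10 subunits. DESeq2 called 6.52% of genes, and of the subunits *Smarca2* and *Actl6b*. The KO-minus-WT difference was more positive in progenitors than in neurons for *Actl6b* (0.50 ± 0.08, adjusted p = 0.000427), *Smarca2* (0.40 ± 0.08, adjusted p = 0.00313) and *Smarcc2* (0.31 ± 0.09, adjusted p = 0.023), and more negative for *Actl6a* (-0.45 ± 0.08, adjusted p = 0.00106). In other words, the difference between classes was smaller in KO4 and KO5 for these 4 genes. *Actl6a* in progenitors was 2.53, 2.09 and 1.74-fold its level in neurons in WT2 to WT4 but 1.35-fold in KO4, 0.872-fold in KO5 and 1.09-fold in WT5. *Actl6b* in progenitors was 0.348 to 0.482 of its level in neurons in WT2 to WT4, 0.735 in KO4, 0.848 in KO5 and 0.848 in WT5. The neuronal and progenitor genes not used to gate moved the same way: all 6 neuronal genes were called positive in the interaction, with a median of 0.87, and all 6 progenitor genes negative, with a median of -0.93. *Stmn2*, for example, was in progenitors 0.324 to 0.503 of its level in neurons in WT2 to WT4, 0.823 in KO4, 0.877 in KO5 and 0.954 in WT5. Whether the 4 subunits would differ with the classes equally distinct in all libraries was not tested. In KO1, whose *Tcf4* was above that of the WT libraries, the ratio was 0.344 for *Actl6b* and 0.398 for *Stmn2*, and in KO2, with *Tcf4* near KO4, it was 0.424 and 0.484. Also called were *Ss18* (-0.26, adjusted p = 0.0082), *Dpf1* (0.28, adjusted p = 0.043) and *Bcl11a* (0.77, adjusted p = 5.23e-05).

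Between genotypes within neurons, 153 of 8380 genes were called (1.83%), 138 higher (1.65%) and 15 lower (0.179%) in KO. Of the 10 subunits *Arid1b* alone was called. It had 0.345, 0.351 and 0.616 in WT2, WT3 and WT4, whereas KO4 had 1.10 and KO5 1.05. The groups did not overlap, and the difference was 0.54 ± 0.09 (adjusted p = 0.014), or 1.38 on the log2 scale of UMIs by edgeR (adjusted p = 0.020), which called 2.04% of genes. WT5, however, had 1.09, KO1 0.502, KO2 0.540 and WT1 0.562, so that the 3 libraries above 1 were WT5, KO4 and KO5. With WT5 added as labelled, the difference was 0.40 ± 0.16 (adjusted p = 0.715), and with replicate number (2, 4 and 5 of each genotype) as a block it was 0.18 ± 0.10 (adjusted p = 0.748). The call was also lost without WT2, KO4 or KO5. Of all genes, 885 (10.6%) had both KO libraries above all WT libraries, and 81.6% of these were higher in WT5 too.

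In upper layer neurons, the commissural projection neurons on which the study centred, 215 of 8365 genes were called (2.57%, with 1.91% higher and 0.658% lower), and *Arid1b* again was the only called subunit. It had 0.291, 0.347 and 0.545 in WT2 to WT4, 1.18 and 1.02 in KO4 and KO5, and 1.04 in WT5. The difference was 0.59 ± 0.10 (adjusted p = 0.0038), 0.46 with WT5 added (adjusted p = 0.762) and 0.24 with the replicate block (adjusted p = 0.792), which held only WT4, WT5, KO4 and KO5 here. The call was lost without KO4. *Smarca4* had 1.72, 1.33 and 1.45 in WT2 to WT4 and 1.17 and 1.40 in KO4 and KO5, with overlap and a difference of -0.13 ± 0.11 (adjusted p = 0.57). *Arid1b* alone lay above WT in both KO libraries (10.7% of all genes), and 7 subunits lay below (27.1%). WT5 lay on the KO side for all 8, as for 79.6% of such genes above and 84.7% below.

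No other subunit was called in neurons. Of the 10, 2 had a positive and 8 a negative difference, beside 31.3% positive among all genes, and the median was -0.19 against -0.04 for all genes. For 7 both KO libraries lay below all WT libraries, as for 34.5% of all genes tested. *Smarcc1* had 1.05 and 1.24 in KO4 and KO5 against 1.57 to 2.11 in WT (-0.39 ± 0.11, adjusted p = 0.10), *Smarce1* 1.82 and 1.95 against 2.46 to 2.90 (-0.37 ± 0.10, adjusted p = 0.11), and *Smarcb1* 1.51 and 1.69 against 1.93 to 2.68 (-0.35 ± 0.12, adjusted p = 0.14). None of these passed the threshold. All 3 were called without WT4, where 787 of 8188 genes were called, 417 of them lower, beside 44 to 147 genes without any other 1 library. In WT5 all 7 were also below WT2 to WT4, as were 90.4% of the genes that were lower in both KO libraries.

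In progenitors 1529 of 8906 genes were called (17.2%, with 5.14% higher and 12% lower), and 4 of 10 subunits. *Arid1b* was higher in KO, with 0.949 and 0.892 in KO4 and KO5 against 0.239 to 0.463 in WT (0.52 ± 0.08, adjusted p = 0.0021). *Actl6b* was higher, with 0.856 and 1.14 against 0.531 to 0.704 (0.30 ± 0.09, adjusted p = 0.039). *Actl6a* was lower, with 0.568 and 0.431 against 1.09 to 1.60 (-0.59 ± 0.11, adjusted p = 0.0048), and so was *Smarcc1*, with 1.18 and 1.24 against 1.61 to 2.54 (-0.45 ± 0.13, adjusted p = 0.032). *Smarcc1* was not called by edgeR (adjusted p = 0.0867) or DESeq2 (adjusted p = 0.129), and the other 3 were. *Smarce1* stood at the threshold (-0.34 ± 0.11, adjusted p = 0.051). WT5 lay on the side of KO4 and KO5 for each, with 1.17 for *Arid1b*, 1.15 for *Actl6b*, 0.405 for *Actl6a* and 1.07 for *Smarcc1*, and with WT5 added no gene was called in any of the 3 genotype fits. Among these, by limma, 454 genes in progenitors, 376 in neurons and 476 in upper layer neurons had an unadjusted p under 0.05. Without KO5, *Arid1b* was the only subunit still called in progenitors, without KO4 or WT2 *Actl6a* and *Arid1b* were, and without WT3 *Actl6b* was lost. Both KO libraries lay above all WT libraries for 3 subunits (*Smarca2*, *Arid1b* and *Actl6b*), as for 15.8% of all genes, and below for 3 (*Smarcc1*, *Smarce1* and *Actl6a*), as for 39.4%. WT5 lay on the KO side for all 6, as for 85.9% of such genes above and 91.1% below. Beside these changes, all 6 progenitor genes not used to gate were lower in KO progenitors. Of the 6 neuronal ones, *Gap43*, *Stmn2*, *Mapt*, *Tubb3* and *Neurod6* were higher in both KO libraries than in every WT library, and *Dcx* overlapped. Their part in the result was not tested.

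**Figure D4:**
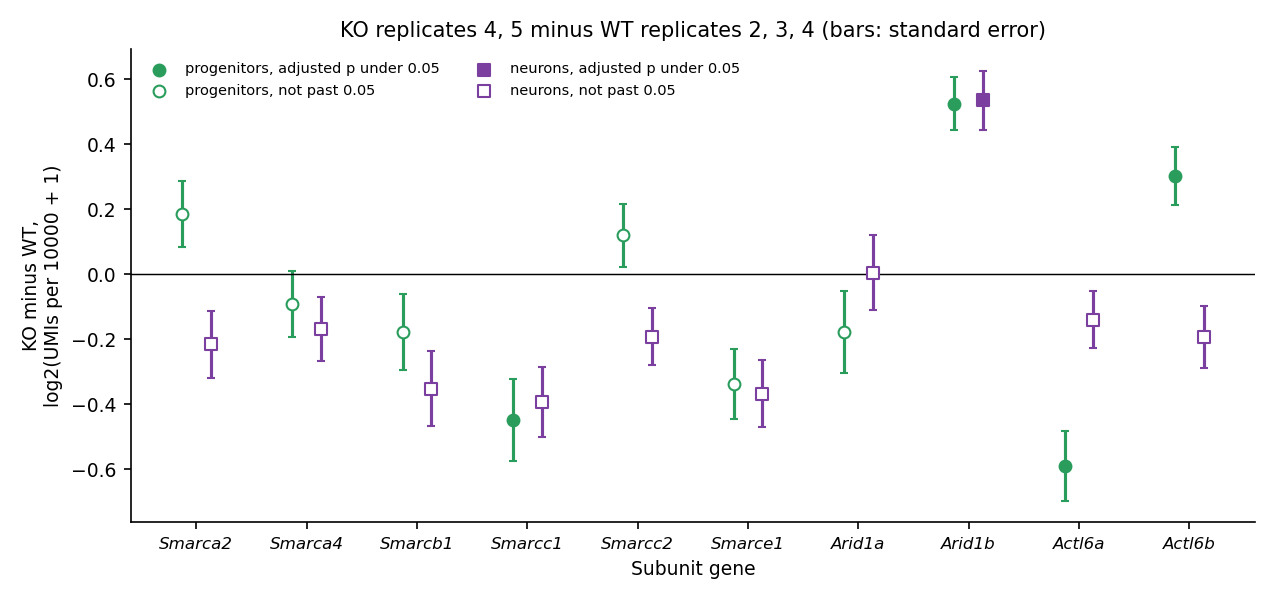
Difference between KO4, KO5 and WT2 to WT4 in log2(UMIs per 10000 + 1) for the 10 subunits in progenitors (green) and neurons (purple), with standard errors of the limma fit and filled symbols for an adjusted p under 0.05. Arid1b lies above 0 in both classes, at 0.52 and 0.54, and Actl6a and Smarcc1 have the lowest values in progenitors, at -0.59 and -0.45.

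As a share of the UMIs of the Arid1 pair, *Arid1b* made up 20.2% ± 2.88 in WT and 46.6% ± 0.575 in KO progenitors, and 27.3% ± 2.40 against 46.9% ± 2.59 in neurons. The differences of 26.4 and 19.6 points have the smallest p that the exact permutation test allows, 0.1. WT5 had 52.2% (46.3 to 58.1) in progenitors and 49.3% (45.5 to 53.2) in neurons, KO1 had 18.1% (12.3 to 25.3) and 21.1% (12.5 to 31.9). WT5, KO4 and KO5 were thus high and WT2, WT3, WT4 and KO1 low. Cells gated as endothelial cells or microglia showed the same split. In endothelial cells the *Arid1b* level was 1.17, 0.772 and 0.911 in WT5, KO4 and KO5. It was 0.446, 0 and 0.349 in WT2, WT3 and WT4, where WT3 held 12 such cells. In microglia it was 1.54, 1.36 and 1.41 against 0, 0 and 0.0853. WT2 and WT3 held only 3 and 2 microglia, too few to tell 0 from a low level, and WT4 held 57. In WT5, KO4 and KO5 these cells also held neuronal transcripts. *Stmn2* was 22.8, 18.9 and 23.3 in their microglia and 24.4, 13.9 and 19.3 in their endothelial cells. In their neurons it was 26.1, 21.1 and 22.5. In WT4 it was 9.12 in microglia, 6.77 in endothelial cells and 21.6 in neurons. Whether the split holds in non-neural cells without such transcripts was not tested. At 1800 UMIs per cell *Arid1b* was detected in 14.4 to 14.5% of progenitors and 14.3 to 15.8% of endothelial cells of KO4 and KO5, and in 5.85 to 8.27% and 0 to 4% in WT2 to WT4.

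*Dpf1*, which encodes the neuronal PHD finger subunit BAF45B, was also higher in WT5, KO4 and KO5, but in other libraries too. It had 3.07 and 3.67 in neurons of KO4 and KO5 and 1.13 to 1.22 in WT2 to WT4 (1.01 ± 0.10, adjusted p = 0.000609), and 2.27 and 3.52 against 0.434 to 0.706 in progenitors (1.29 ± 0.13, adjusted p = 0.000264). WT5 had 3.49 in neurons and 3.24 in progenitors, and KO1 0.529 and 0.451. WT1 had 4.60 and 1.72, the first the highest value of all 9 libraries, and KO2 3.22 and 1.25. With WT5 added, the differences were 0.74 (adjusted p = 0.715) and 0.93 (adjusted p = 0.601). Of the other exchanged subunits *Ss18* was lower in KO progenitors (-0.32, adjusted p = 0.017), with 0.193 and 0.233 against 0.370 to 0.623 in WT and 0.203 in WT5.

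**Figure D5:**
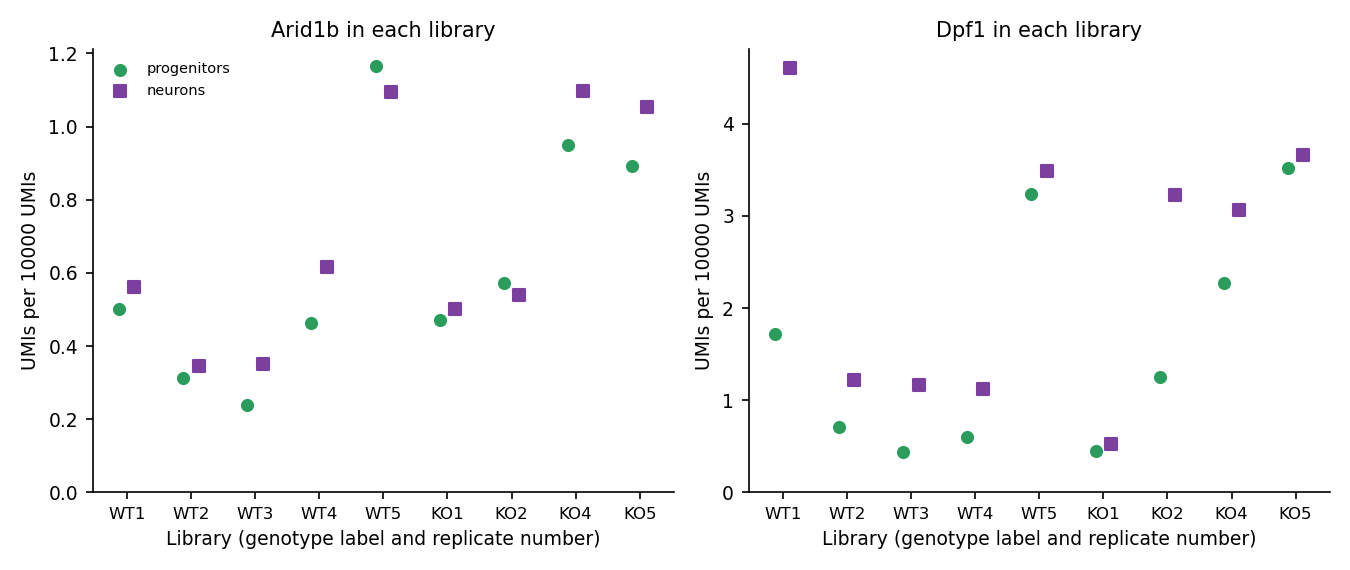
Level of Arid1b (left) and Dpf1 (right) in progenitors (green circles) and neurons (purple squares) of each of the 9 libraries, in UMIs per 10000. WT5, KO4 and KO5 stand above WT2, WT3, WT4 and KO1 in both classes, near 1 for Arid1b and between 2.27 and 3.67 for Dpf1, and WT1 and KO2, with 28 and 26 neurons, lie high for Dpf1.

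Of the further BAF genes, 19 were tested in progenitors, and *Dpf1* and *Actb* were called higher and *Ss18* and *Pbrm1* lower in KO (*Pbrm1* -0.44, adjusted p = 0.015), where *Pbrm1* belongs to the variant complex PBAF. In neurons *Dpf1* and *Actb* were called, both higher. *Actb*, beta-actin, is a subunit of the complex but mostly cytoskeletal, and differed by 1.69 in neurons (adjusted p = 0.0027). *Actb* had 53.4, 64.8 and 41.3 UMIs per 10000 in neurons of WT2, WT3 and WT4, 171.2 and 170.5 in KO4 and KO5, but 194.8 in WT5 and 186.4 in WT1, and 55.04 and 109.5 in KO1 and KO2. With the replicate block its difference was 0.95 (adjusted p = 0.785). In upper layer neurons *Bcl11a* was lower by limma (-0.60, adjusted p = 0.036) but not called by edgeR (adjusted p = 0.184) or DESeq2 (adjusted p = 0.303), and *Bcl11b*, known as Ctip2, was higher (0.81, adjusted p = 0.0024). For ISWI, NuRD and the genes of INO80 and SRCAP, 0 of 9, 12 and 12 tested genes were called in neurons, with 3, 3 and 2 at an unadjusted p under 0.05. In progenitors 4 of 11, 4 of 13 and 2 of 12 were called, lower in KO but for *Chd5*, with medians of -0.23, -0.24 and -0.10 beside -0.14 for the 10 subunits and -0.05 for all genes.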

How the data were processed

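Single-cell suspensions of E18.5 neocortex were captured with 10x Chromium 3′ v2 chemistry. Per the submitters' processing notes and methods, the authors aligned reads with Cell Ranger to mm10 (GRCm38) and analysed them in R 3.6.0 with Seurat 2.3.4. WT4, WT5, KO4 and KO5 were deposited as raw counts of UMIs. The others, WT2 and WT3 among them, were deposited as the natural log of 1 plus UMIs per 10000. From these, whole UMIs were recovered for 100% of values (tolerance 1e-06). Both compared KO libraries thus came as counts, and of the compared WT libraries only WT4 did. Cells with 1000 to 5000 genes, 1800 to 10000 UMIs, under 6% mitochondrial and at most 1% haemoglobin UMIs were kept. The haemoglobin limit acted unequally on the compared groups. Of cells within the other limits it removed 0.421, 1.34 and 0.564% in WT2, WT3 and WT4, but 13.9% in KO4 and 40.4% in KO5. No doublet caller was run, and leaving out the 5% of cells with most UMIs was an alternative. Cells were gated by marker lists, at least 2 markers being required. The 10 subunits, the lists and the classes were chosen with earlier results of these data known. Each library is 1 animal.

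Mean UMIs per 10000 per library and class were tested as log2(value + 1) with limma 3.58.1 (trend, robust) in R 4.3.3 on genes whose mean reached 0.1 in at least 2 libraries, with Benjamini-Hochberg adjustment over all genes. edgeR 4.0.16 (quasi-likelihood) and DESeq2 1.42.0 on the UMIs were alternatives, as were other pseudocounts, filters, depths and gates and leaving out each library. On simulated data with log2 changes of 1, limma recovered 95.5% of 200 changed genes for genotype in neurons (8188 genes) and 99.5% for progenitors against neurons (8870 genes). The simulation gave every gene a dispersion of 0.02, held no other difference between libraries, and drew changed genes from the better expressed ones. It checks the code and does not give the power for these libraries or for low genes. Shares were tested with exact permutation and sign-flip tests (scipy 1.17.1), 2-sided. Named were the 10 subunits, the 6 exchanged subunits, *Tcf4*, called genes of the other remodeller lists (at most 4 per list and direction) and the 5 genes most correlated with *Actl6a* or *Actl6b*. Same-numbered WT and KO libraries (2, 4 and 5) deviated together in neurons (r = 0.593, 0.291 and 0.496), so the replicate block is given there, but not all did in progenitors (0.689, 0.028 and 0.613). Of differently numbered libraries, WT5 and KO4 had r = 0.278 in neurons and 0.471 in progenitors. WT4 and KO2 had 0.174 in progenitors, and all other such r were negative. The labels do not say that equal numbers mark pairs. Kept UMIs per library ran from 335764 to 29573654, and intervals cover counting error only. Promoters came from RefSeq (GRCm38.p6) and coordinates from GENCODE vM21.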

Additional observations from a re-analysis of the deposited data

Results flagged for a closer look

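Of 40 sets of libraries with 1 label examined for a library far from the others, 5 held one, where chance alone marks about 5% of sets. The sets share libraries and so are not independent, and an excess over that rate was not tested. Among the 4 libraries labelled KO, *Smarca2* in neurons was 4.56 UMIs per 10000 in KO1, with the nearest library at 2.22, and *Smarce1* in neurons was 3.41 in KO1, with the nearest at 1.95. *Arid1a* in progenitors was 2.21 in KO1 against 1.03 in the nearest library, and *Smarcc1* in progenitors was 1.74 in KO2 against 1.24. Among the 5 libraries labelled WT, *Arid1b* in progenitors was 1.17 in WT5 against 0.502 in the nearest.

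The KO-minus-WT difference was not the same in progenitors and neurons for 4 subunits, by the limma interaction. It was 0.40 for *Smarca2* (adjusted p = 0.0031), 0.31 for *Smarcc2* (adjusted p = 0.0229), -0.45 for *Actl6a* (adjusted p = 0.0011) and 0.50 for *Actl6b* (adjusted p = 0.00043). DESeq2 called *Smarca2* and *Actl6b* only.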

How the results depend on the processing

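Of 739 alternative values for single genes, 551 kept their direction and side of the threshold. Genes called for genotype in neurons, progenitors and upper layer neurons numbered 10, 322 and 6 with no filter on low values. With the replicate block they numbered 1, 0 and 11. They numbered 0, 0 and 0 with WT5 added and with all libraries as labelled. In the libraries deposited as counts, WT4 and WT5 against KO4 and KO5, they numbered 0, 0 and 1. DESeq2 called 257 in neurons. Cells with fewer than 4000 UMIs gave 329 in progenitors and 67 in upper layer neurons, and thinning gave 139 in the latter. Leaving out 1 library gave 44 to 787, 127 to 2299 and 46 to 418. Between classes, 0 were called with no filter, 2638 by edgeR, 331 under 4000 UMIs, 2231 with at least 3 markers, 726 without the 5% of cells with most UMIs, 3643 in WT2 to WT4 alone, 207 in KO4 and KO5 alone (both chosen after seeing the data), and 0 to 2608 without 1 library. In the interaction these were 370 with no filter, 606 by DESeq2, 361 under 4000 UMIs, 839 with at least 3 markers and 439 to 1470 without 1 library. The cause was not tested.

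With the replicate block, *Arid1b* differed by 0.18 in neurons, 0.16 in progenitors and 0.24 in upper layer neurons. With all libraries as labelled, *Smarce1* and *Actl6b* in progenitors turned to 0.10 and -0.0800. Between classes, *Smarcb1* and *Smarcc2* turned to 0.0085 and 0.0087 in KO4 and KO5 alone, *Smarcc1* to -0.0276 with at least 3 markers, and *Arid1a* to 0.0023 in cycling and intermediate progenitors, 0.0437 in WT2 to WT4 alone and -0.0700 to 0.0141 without 1 library. For KO minus WT in neurons, the *Actl6b* share was -0.162 points when thinned and -2.08 to 3.88 without 1 library, and the *Smarca2* share -1.57 to 0.667. With 3 against 2 libraries no share could reach a p below 0.1. *Arid1b* in WT progenitors rested on 31 to 256 UMIs a library.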
